A study of Mus musculus with 10 samples.

Results

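The translation elongation factor genes of mouse liver were described across 10 RNA-seq libraries of normal liver and of liver tumours. The genes were the EEF1A isoforms Eef1a1 and Eef1a2, the exchange factor subunits Eef1b2, Eef1d and Eef1g, the translocase Eef2 and its kinase Eef2k. They were selected by symbol, 7 of 16697 genes with a symbol in the table, and all 7 passed the filter on low values. Eef1a2 passed only through the c-MYC/FOXO1AAA libraries. Eef1a2 was singled out because of its levels in these same libraries, so its levels are given as a description with no test.

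The 3 groups were normal liver of wild-type mice (NL, n = 4), c-MYC tumours (n = 3) and tumours that carried c-MYC plus FOXO1AAA (n = 3). FOXO1AAA is a mutant of FOXO1, a transcription factor, that stays active. Plasmids were delivered by hydrodynamic tail vein injection, which transfects hepatocytes, and were integrated by the sleeping beauty transposase. The c-MYC group had received the empty pT3-EF1α vector in place of pT3-EF1α-FOXO1AAA, and whether the control tumours also carried MCL1 differs between passages of the study. The vectors drive their inserts from an elongation factor 1α promoter, which takes its name from the gene family described here. NL mice carried no transgene, so every comparison with NL sets a tumour with injected plasmids against an uninjected wild-type liver. The methods name FVB/N for the normal livers, while the strain is C57BL/6 in 1 part of the labels and FVB in another, and ages are not in the labels.

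Elongation adds amino acids to the growing protein chain. EEF1A bound to GTP brings the aminoacylated tRNA to the ribosome, and the EEF1B complex, built from EEF1B2, EEF1D and EEF1G, exchanges the spent GDP of EEF1A for GTP. EEF2 then moves the ribosome on by a codon, and EEF2K phosphorylates and inhibits EEF2. EEF1A1 is the isoform of most tissues, liver included, and EEF1A2 is known from adult skeletal muscle, heart and neurons.

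Values are FPKM, reads scaled to gene length and library, taken from the deposited log2 FPKM. Those log2 values include a prior count of 2, so that a gene without reads sits at a floor. Whole reads were recovered from them, 13123695 to 17031444 per NL library, 14189645 to 14998299 per c-MYC library and 13477109 to 20547715 per c-MYC/FOXO1AAA library. The authors' library sizes were scaled by factors of 0.649 to 0.684 in NL, 1.256 to 1.295 in c-MYC and 1.454 to 1.502 in c-MYC/FOXO1AAA, so comparisons with NL depend on this scaling. Foxo1 stood at 70.1 to 95.6 FPKM in the 3 c-MYC/FOXO1AAA libraries, at 5.17 to 6.46 in c-MYC and at 6.69 to 7.87 in NL. The mouse Myc gene was at 4.17 to 22.2 FPKM in NL and at 0.561 to 1.11 in the 6 tumours, and whether reads of the c-MYC transgene can reach this entry was not tested. Hepatocyte markers, 10 of 10 in the table, summed to 78025 to 86870 FPKM in NL, 3754 to 5745 in c-MYC and 867 to 1577 in c-MYC/FOXO1AAA. In bulk tissue, fewer cells of a type and less RNA per cell cannot be told apart. The methods give n as injected mice for the tumour groups and as livers for NL, and p-values measure the spread between these libraries.

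The EEF1A isoforms are close at the protein level and separable at the RNA level. Eef1a1 lies on chr9:78478449-78489151 and Eef1a2 on chr2:181147653-181157014, both on the minus strand of GRCm38. Their coding sequences of 1386 and 1389 bases were identical in 80% of 1392 aligned columns, and the proteins of 462 and 463 residues in 92.2% of 463. The longest stretch of identical bases in the 2 transcripts was 23 bases. No stretch of 100 bases in the Eef1a2 transcript recurred in the transcript of any other annotated gene, whereas 26.7% of such stretches of Eef1a1 recurred in other genes, 9 of 10 of them pseudogenes. The stretch of 91 coding bases that holds those 23 bases is shown to make clear how a read tells the isoforms apart. It runs from coding base 270 to 360, in exons 3 and 4 of both genes (Eef1a1, chr9:78480241-78480295 and chr9:78480113-78480148, and Eef1a2, chr2:181153651-181153705 and chr2:181153045-181153080). Capitals mark the 77 identical bases and lower case the 14 that differ.
Eef1a1: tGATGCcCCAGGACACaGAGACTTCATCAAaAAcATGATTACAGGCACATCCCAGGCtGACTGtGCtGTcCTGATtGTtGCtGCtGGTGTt
Eef1a2: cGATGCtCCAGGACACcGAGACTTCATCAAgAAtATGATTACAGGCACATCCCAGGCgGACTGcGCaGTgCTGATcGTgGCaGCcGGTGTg

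Eef1a2 transcripts were abundant in the c-MYC/FOXO1AAA tumours and at or near 0 reads elsewhere. The 4 NL libraries held 0 reads each. The 3 c-MYC libraries held 0, 1 and 1 reads, whereas the 3 c-MYC/FOXO1AAA libraries held 22125, 22234 and 12408 reads. In FPKM, the c-MYC/FOXO1AAA libraries stood at 431, 357 and 304 (364 ± 63.9, SD, n = 3), with no overlap with any other library. By FPKM, Eef1a2 ranked 152nd to 226th of the 16697 genes in these tumours.

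The mean in c-MYC/FOXO1AAA was at least 9912-fold higher than in NL, a bound set by 3 reads over the 4 NL libraries. Against the 2 reads pooled over the c-MYC libraries, which stand for 0.0173 FPKM, the ratio was 21068, with an exact Poisson 95% interval of 5832 to 173962 for the c-MYC reads. The bound and the interval cover counting error only. No fold is given between c-MYC and NL, since both were at or under 3 reads. On the deposited log2 scale the difference between the tumour groups was 12.27, and it ranged from 8.39 to 12.44 over the alternatives, the lowest with a pseudocount of 1.

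**Figure D1:**
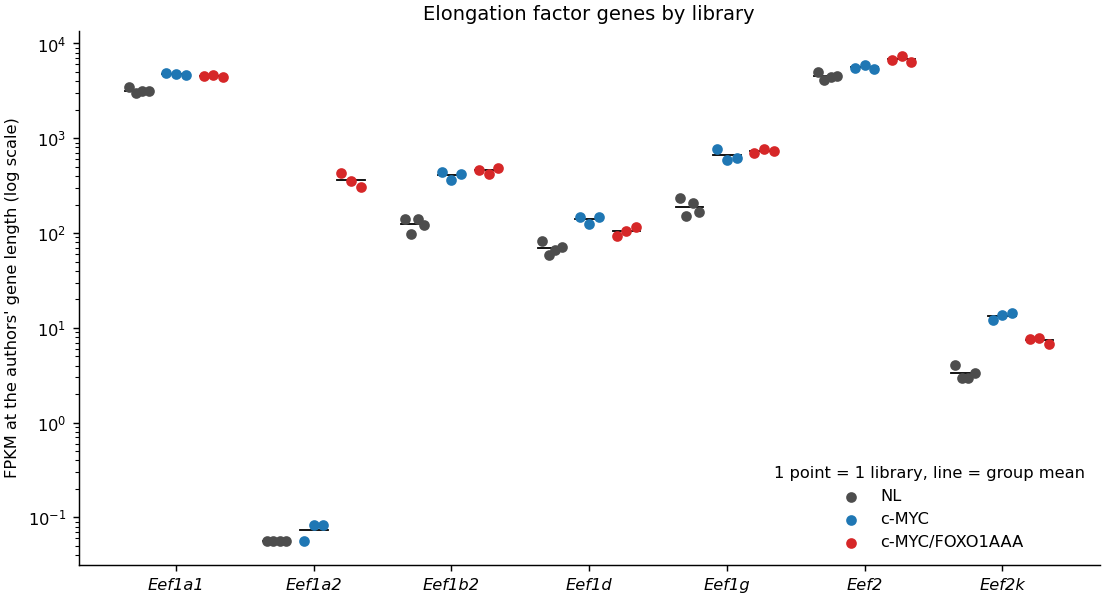
FPKM of the 7 genes on a log axis, where each point is a library and each line a group mean (NL n = 4, c-MYC n = 3, c-MYC/FOXO1AAA n = 3). Eef1a2 is at the floor of 0.0568 FPKM or within 1 read of it in NL and c-MYC and between 304 and 431 in c-MYC/FOXO1AAA. Eef2 is drawn at the 651 bp the authors used.

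Eef1a1 remained the main EEF1A transcript in every library. It stood at 3476, 2972, 3178 and 3128 FPKM in NL, at 4922, 4800 and 4612 in c-MYC and at 4521, 4651 and 4397 in c-MYC/FOXO1AAA. The 2 tumour groups overlapped, and all 6 tumours lay above all 4 NL libraries. Among all tested genes, 73.9% did not overlap between c-MYC and NL and 80.1% between c-MYC/FOXO1AAA and NL. In the c-MYC/FOXO1AAA tumours Eef1a1 exceeded Eef1a2 by 10.5, 13 and 14.5 times, per length. Eef1a2 thus made up 8.7%, 7.13% and 6.46% of the summed EEF1A FPKM in these 3 libraries (7.43% ± 1.15, SD, n = 3), against 0% in NL and 0.000366% ± 0.000317 (SD, n = 3) in c-MYC.

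The summed EEF1A level was 4701 to 5008 FPKM in c-MYC/FOXO1AAA and 4612 to 4922 in c-MYC. The 2 ranges overlapped, and both lay above the 2972 to 3476 of NL. Between the tumour groups Eef1a1 differed by -0.08 in log2 fold change (SE 0.10, adjusted p = 1, limma treat against a 1.5-fold threshold). That sign turned to 0.09 when libraries were scaled to the same FPKM total and to 0.11 after quantile normalization. Against NL, Eef1a1 was 1.5 times as high in c-MYC (log2 fold change 0.59, SE 0.09, adjusted p = 0.736) and 1.42 times as high in c-MYC/FOXO1AAA (log2 fold change 0.51, SE 0.09, adjusted p = 0.989), neither past the test in limma treat. Adding the reads of the 5 listed pseudogenes, 0.391% to 0.462% of the total, left all 3 of these values as they were to 2 decimals.

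**Figure D2:**
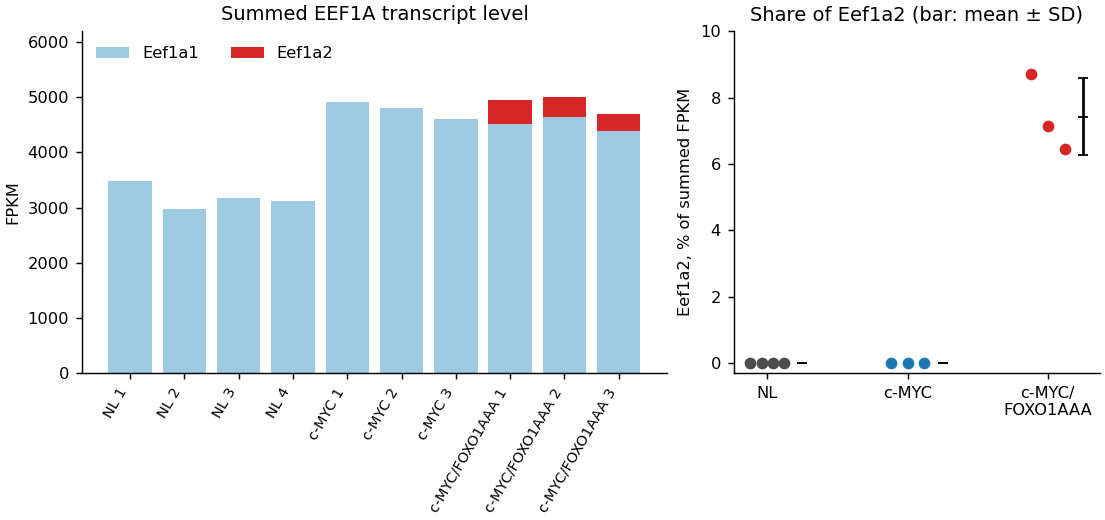
Left, stacked FPKM of Eef1a1 and Eef1a2 in each library on a linear axis from 0. Right, the percent of the summed FPKM from Eef1a2, with points for libraries and bars for mean ± SD. The Eef1a2 segment is visible in the 3 c-MYC/FOXO1AAA libraries, at 6.46% to 8.7%, on top of an Eef1a1 level within 4397 to 4651 FPKM.

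The bases before the Eef1a2 start site are shown because this gene had the largest span of levels among the members. The 250 bases upstream of the RefSeq start (GRCm38.p6, chr2:181157016-181157265, minus strand) held neither the FOXO site GTAAACA on either strand nor the E-box CACGTG, a sequence that MYC can bind. Of 32851 promoters of the same length, 3.17% held the first and 6.02% the second. The window shows only these letters, and other sequences of the locus were not searched.
Eef1a2: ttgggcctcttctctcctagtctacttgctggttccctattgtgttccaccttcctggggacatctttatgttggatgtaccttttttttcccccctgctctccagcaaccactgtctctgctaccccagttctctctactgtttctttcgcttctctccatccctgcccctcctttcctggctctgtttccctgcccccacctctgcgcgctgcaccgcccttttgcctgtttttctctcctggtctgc

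Markers of skeletal muscle, a tissue known for EEF1A2, were in sum highest where Eef1a2 was. Of 12 markers 11 were in the table, and their summed level was 374 to 506 FPKM in c-MYC/FOXO1AAA, 4.4 to 9.39 in c-MYC and 1.76 to 2.71 in NL. In c-MYC/FOXO1AAA 9 of the 11 had a mean of at least 1 FPKM, led by the fast troponin T Tnnt3 at 160, the skeletal actin Acta1 at 110 and the myosin light chain Mylpf at 86. The myogenic factors Myog and Myod1 had 0 reads in NL and in c-MYC and 25.9 and 5.31 FPKM in c-MYC/FOXO1AAA. Adult fast myosin heavy chains were low there, with Myh1 at 0.193 and Myh4 at 0.0924 FPKM. The marker Ckm did not follow Eef1a2 closely, at 0.113 FPKM in NL, 2.92 in c-MYC and 5.76 in c-MYC/FOXO1AAA. In NL 5 of the 11 and in c-MYC 3 of the 11 muscle markers had 0 reads. The part of these transcripts in the Eef1a2 level was not tested. Of 10 neuron markers 4 were in the table, and these summed to 5.57 to 6.39 FPKM in NL, 0.825 to 1.55 in c-MYC and 3.13 to 4.41 in c-MYC/FOXO1AAA. The sum in NL came mostly from Syt1 (5.07 FPKM in NL, 0.025 in c-MYC and 0.883 in c-MYC/FOXO1AAA), whereas Map2 was highest in c-MYC/FOXO1AAA, as Eef1a2 was (0.163, 0.706 and 2.05 FPKM in the same order). Rbfox3 was about as high in NL as in c-MYC/FOXO1AAA (0.491, 0.169 and 0.543 FPKM), and Syn1 was highest in c-MYC (0.186, 0.252 and 0.219 FPKM). The part of neuron transcripts was not tested either.

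The 5 genes nearest to Eef1a2 were found by the root mean square difference of mean-centred log2 FPKM over the 10 libraries. They were Penk and Tbx15 (0.81 each), Fbn2 (0.84), Olig2 (0.97) and Mybpc1 (1.30). Penk encodes proenkephalin, Tbx15 and Olig2 transcription factors, Fbn2 a fibrillin and Mybpc1 a myosin-binding protein. Each was at no more than 7 reads in any NL or c-MYC library and at mean levels of 41.2 to 489 FPKM in c-MYC/FOXO1AAA. That pattern follows from the choice of these genes by their likeness to Eef1a2. Genes nearest to Eef1a1 by the same measure were Rhoa, Scaf1, Stoml2 and Ccdc59 at 0.06 and Smyd2 at 0.07, with Rhoa at 63.4 FPKM in NL, 93.1 in c-MYC and 92.1 in c-MYC/FOXO1AAA.

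Eef1b2 and Eef1g, of the exchange factor complex, were called higher in both tumour groups than in normal liver, and Eef1d in the c-MYC tumours. Of the 6 members other than Eef1a2, 4 were called higher in c-MYC versus NL (Eef1b2, Eef1d, Eef1g and Eef2k) and none lower, in the fit over 14017 genes of which 24.5% were called higher and 23.6% lower. In c-MYC/FOXO1AAA versus NL, 3 were called higher (Eef1b2, Eef1g and Eef2k) and none lower, where 31.2% of genes were called higher and 26.6% lower. In c-MYC/FOXO1AAA versus c-MYC, none of the 6 was called in either direction, against 15.9% called higher and 12.7% called lower among all genes. At an unadjusted p under 0.05 in limma treat the count was also 0. With no fold-change threshold, 0 of the 6 were called higher and 2, Eef1d and Eef2k, lower in that comparison. At that setting 28.4% of all tested genes were called higher and 26.4% lower between the tumour groups. The c-MYC libraries serve in 2 comparisons and the NL libraries in 2, so the comparisons are not independent.

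Eef1b2 carries the nucleotide exchange activity of the EEF1B complex. It was at 142, 97.4, 140 and 123 FPKM in NL, at 439, 366 and 424 in c-MYC and at 459, 423 and 489 in c-MYC/FOXO1AAA. All tumours lay above all normal livers, and the 2 tumour groups overlapped. The log2 fold change was 1.72 for c-MYC versus NL (SE 0.14, adjusted p = 2.03e-05, limma treat) and 1.88 for c-MYC/FOXO1AAA versus NL (SE 0.14, adjusted p = 5.02e-06), with 0.16 between the tumour groups (SE 0.15, adjusted p = 1).

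Eef1g is the structural subunit that holds the complex together. Its level was 235, 150, 208 and 168 FPKM in NL, 764, 591 and 622 in c-MYC and 691, 769 and 730 in c-MYC/FOXO1AAA. It showed the same order as Eef1b2, with normal livers lowest and overlapping tumour groups. The log2 fold change was 1.81 for c-MYC versus NL (SE 0.16, adjusted p = 3.02e-05, limma treat), 1.96 for c-MYC/FOXO1AAA versus NL (SE 0.16, adjusted p = 8.33e-06) and 0.16 between the tumours (SE 0.17, adjusted p = 1). Eef1g is the member that shares most sequence with other genes, 49.4% of its stretches of 100 bases, all with pseudogenes. The 2 of these listed in the table took 3.31% to 4.8% of the summed reads, and with them added the log2 fold changes were 1.80, 1.96 and 0.16 in the same order.

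Eef1d is a further exchange subunit. It was at 82.9, 59.3, 66.1 and 71 FPKM in NL, at 149, 126 and 147 in c-MYC and at 92.3, 106 and 116 in c-MYC/FOXO1AAA. The 3 groups did not overlap, with c-MYC/FOXO1AAA in between, a separation seen for 73.9% of all tested genes between c-MYC and NL, for 63.4% between the tumour groups and for 80.1% between c-MYC/FOXO1AAA and NL. It was called in c-MYC versus NL (log2 fold change 1.02, SE 0.13, adjusted p = 0.00891, limma treat) and in neither of the others, at 0.59 versus NL (SE 0.13, adjusted p = 0.667) and -0.43 versus c-MYC (SE 0.14, adjusted p = 1) for c-MYC/FOXO1AAA. Its 3' end overlaps Naprt, a gene of NAD synthesis on the same strand of chromosome 15, by 277 bases. Naprt had 8353 reads over the NL libraries, 2439 over c-MYC and 591 over c-MYC/FOXO1AAA, and how reads in the overlap were counted is not given in the sources used here.

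**Figure D3:**
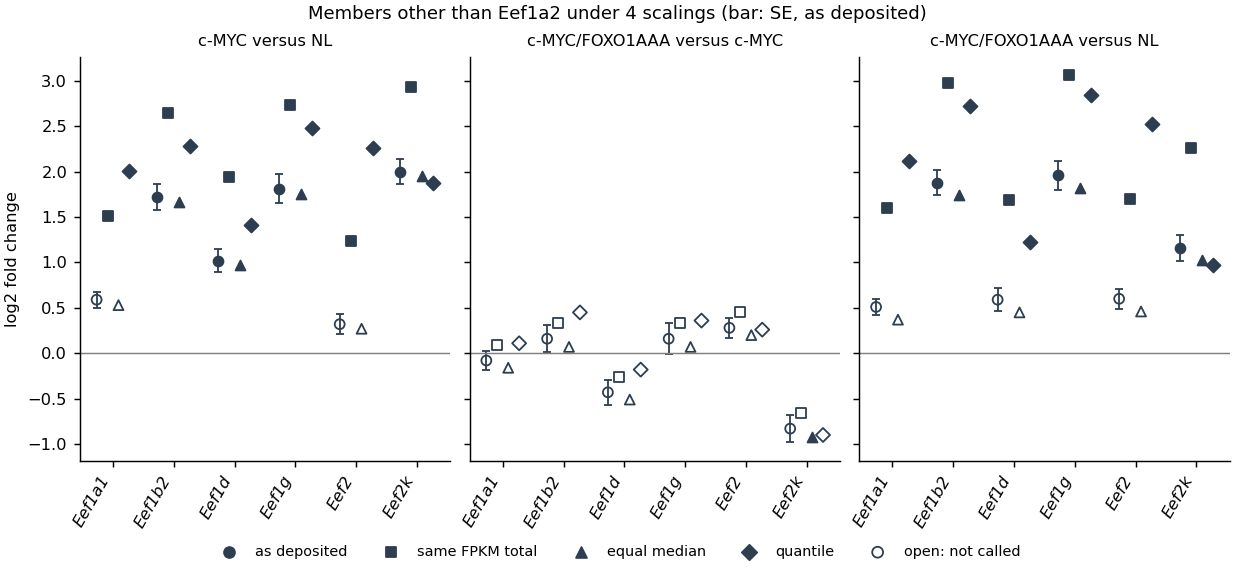
Log2 fold changes of the 6 members other than Eef1a2 in the 3 comparisons, with a marker for each scaling of the libraries, filled where limma treat called the gene and open where it did not. Bars are SE for the values as deposited. All 6 lie above 0 versus NL under each scaling, and Eef2k lies lowest between the tumour groups, from -0.92 to -0.66.

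Scaling changed how many members were called versus NL. The authors' factors left the median log2 fold change of all tested genes at 0.08 between c-MYC and NL and at 0.21 between c-MYC/FOXO1AAA and NL. With the same FPKM total in every library these medians became 1.01 and 1.31, and higher calls rose from 51% to 78.8% and from 54% to 79.5% of all calls. All 6 members were then called higher in both comparisons, as were 50.4% and 58% of all tested genes, in the same order. Measured from the median of all tested genes, Eef1a1 was higher by 0.50 and Eef2 by 0.23 in c-MYC versus NL under the authors' factors. The same total gives the same values by construction, since it moves all genes of a library alike. Eef1b2 and Eef1g were at 1.64 and 1.72 by that measure. After quantile normalization, which also called all 6, Eef1a1 stood 1.82 and Eef2 2.07 above the median of all tested genes in c-MYC versus NL. Quantile normalization called 26.2% of all tested genes higher in that comparison and 31.8% in c-MYC/FOXO1AAA versus NL.

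Ratios within a library do not change when a library is multiplied by a factor. Quantile normalization is not such a factor and can change them. Eef1b2 over Eef1a1 had a mean log2 ratio of -4.68 ± 0.18 in normal liver (SD, n = 4), of -3.55 ± 0.14 with c-MYC (SD, n = 3) and of -3.31 ± 0.15 with c-MYC and FOXO1AAA (SD, n = 3). Eef1g over Eef1a1 stood at -4.09 ± 0.21, -2.87 ± 0.17 and -2.63 ± 0.07 in the same order. In both ratios the NL libraries were separate from all tumours and the tumour groups overlapped. How often ratios of other genes separate the groups was not tested, here or for the ratios below. Among 5 ratios compared over the 3 groups, an exact permutation test of the F statistic over 4200 arrangements gave p = 0.000952 for each of these 2, or 0.00159 adjusted over the 5. Eef1a1 transcripts thus outnumbered those of Eef1b2 and Eef1g by less in tumours than in normal liver, by 1.13 and 1.22 on the log2 scale in c-MYC. The permutation test compares the 3 groups at once, for all 5 ratios, and tests no pair of groups. For a pair, the smallest 2-sided permutation p is 0.0571 with 4 against 3 libraries and 0.1 with 3 against 3.

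Eef1d over Eef1a1 followed another pattern. Its log2 ratio was -5.39, -5.65, -5.59 and -5.46 in NL, -5.04, -5.26 and -4.97 in c-MYC and -5.61, -5.46 and -5.25 in c-MYC/FOXO1AAA. Libraries of the last group spread from near the bottom of the NL range to above it. The 3 groups differed with an exact permutation p = 0.0281, also 0.0281 adjusted over the 5 ratios, and this call did not hold without NL replicate 2 (adjusted p = 0.0679), NL replicate 3 (0.0607), NL replicate 4 (0.05), c-MYC replicate 1 (0.0667) or c-MYC replicate 3 (0.0849).

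**Figure D4:**
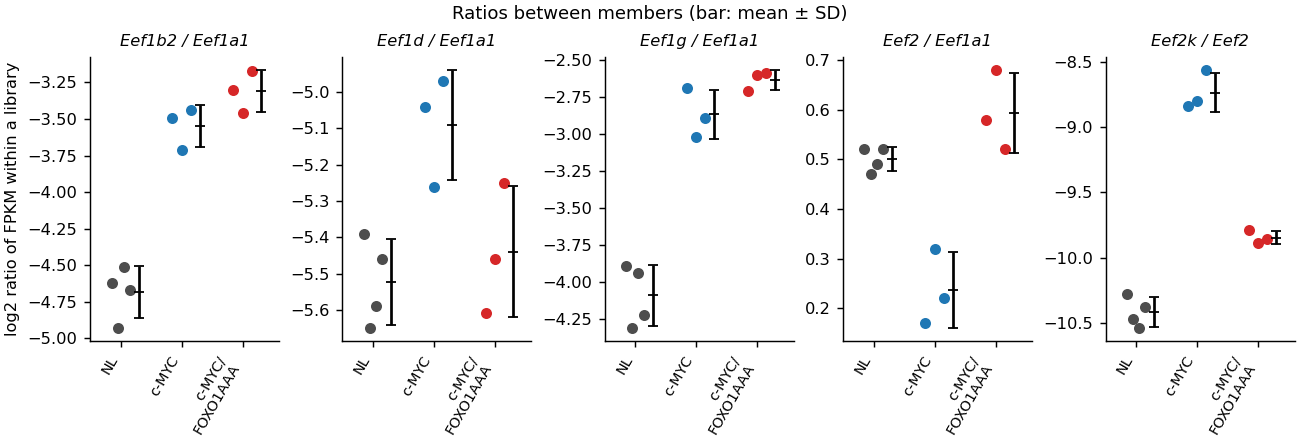
Log2 ratio of FPKM between members within each library, with points for libraries and bars for mean ± SD of the group (NL n = 4, others n = 3), on an axis of its own for each ratio. Eef2k over Eef2 separates all 3 groups, at -10.54 to -10.28 in NL, -8.84 to -8.56 in c-MYC and -9.89 to -9.79 in c-MYC/FOXO1AAA.

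Eef2 was among the most highly expressed genes of all libraries. It was at 4989, 4131, 4466 and 4484 FPKM in NL, 5526, 5989 and 5354 in c-MYC and 6755, 7462 and 6297 in c-MYC/FOXO1AAA. The 3 groups did not overlap, with NL lowest and c-MYC/FOXO1AAA highest, but none of the 3 comparisons passed the test. Such separation was seen for 63.4% to 80.1% of all tested genes in these comparisons. The log2 fold change was 0.32 for c-MYC versus NL (SE 0.11, adjusted p = 1, limma treat), 0.28 for c-MYC/FOXO1AAA versus c-MYC (SE 0.11, adjusted p = 1) and 0.60 for c-MYC/FOXO1AAA versus NL (SE 0.11, adjusted p = 0.622).

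The FPKM of Eef2 rests on a length of 651 bp, that of a transcript with a retained intron, whereas its coding transcript in GENCODE has 3089 bp. Among 13779 coding genes whose length matched an annotated transcript, 12.4% had such a length of a transcript that is not coding. At 3089 bp the level of Eef2 would be 4.75 times lower, 952 ± 74.6 in NL (SD, n = 4), 1185 ± 69.2 in c-MYC (SD, n = 3) and 1441 ± 124 in c-MYC/FOXO1AAA (SD, n = 3). By that length Eef2 lay below Eef1a1 in all groups, where the deposited values place it above. Fold changes between groups do not depend on the length.

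Relative to Eef1a1, Eef2 was lowest in the c-MYC tumours. The log2 ratio of the deposited values was 0.50 ± 0.02 in NL (n = 4, SD), 0.23 ± 0.08 in c-MYC (n = 3, SD) and 0.59 ± 0.08 in c-MYC/FOXO1AAA (n = 3, SD). The c-MYC libraries, at 0.17 to 0.32, did not overlap with those of the other groups, and NL met c-MYC/FOXO1AAA at 0.52. The groups differed with an exact permutation p = 0.00143 (0.00179 adjusted over the 5 ratios). After quantile normalization, by contrast, Eef2 rose more than Eef1a1 in c-MYC versus NL (log2 fold changes 2.26 and 2.01).

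Eef2k, the kinase that holds EEF2 in check, had the largest fold change among the 6 in c-MYC versus NL on the deposited values, though not after quantile normalization (1.87, beside 2.48 for Eef1g) or with a pseudocount of 1 (1.72, beside 1.80 for Eef1g). It was at 4.02, 2.92, 2.99 and 3.37 FPKM in NL, 12, 13.5 and 14.2 in c-MYC and 7.6, 7.86 and 6.76 in c-MYC/FOXO1AAA, from 180 to 1709 reads per library. No groups overlapped, with c-MYC highest and c-MYC/FOXO1AAA between, a separation seen for 63.4% to 80.1% of all tested genes in the 3 comparisons. The log2 fold change was 2.0 for c-MYC versus NL (SE 0.14, adjusted p = 4.58e-06, limma treat) and 1.16 for c-MYC/FOXO1AAA versus NL (SE 0.14, adjusted p = 0.00202). Between the tumour groups it was -0.83 (SE 0.15, adjusted p = 0.181), not past the test, and over the alternatives this adjusted p ranged from 0.000694 to 1, with a call at an equal median of the libraries (0.0465) and with no fold-change threshold (0.000694).

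The ratio of Eef2k to Eef2 had the smallest p of the 5 ratios, and its 3 groups did not overlap. Its log2 mean was -10.42 ± 0.12 in NL (n = 4, SD), -8.73 ± 0.15 in c-MYC (n = 3, SD) and -9.85 ± 0.05 in c-MYC/FOXO1AAA (n = 3, SD). The kinase transcript thus stood 1.68 log2 units higher per Eef2 transcript in the c-MYC tumours than in NL, and 1.11 lower with FOXO1AAA than without it. The exact permutation p over the 3 groups together was 0.000476, the smallest this design can give, and 0.00159 adjusted over the 5 ratios. It tests neither the difference from NL nor that between the tumour groups by itself. After quantile normalization Eef2k rose less than Eef2 in c-MYC versus NL (log2 fold changes 1.87 and 2.26). These are transcript levels, and phosphorylation of EEF2 was not measured here.

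Upstream sequences of Eef2k and Eef2 are shown as a pair because both held the E-box in their first 250 bases while their transcripts were 4.00 and 1.25 times as high in c-MYC as in NL, the first called and the second not. The Eef2k window shown (GRCm38.p6, chr7:120842581-120842830, plus strand) is that of the most upstream of 3 starts in RefSeq. The windows of the other 2 Eef2k starts held neither the E-box nor GTAAACA. The Eef2 window is chr10:81176381-81176630, plus strand. Capitals mark CACGTG, which begins 31 bases before the start in Eef2k and 43 bases before it in Eef2. Neither window shown held GTAAACA, and the windows of Eef1a1 and Eef1b2 held neither sequence.
Eef2k: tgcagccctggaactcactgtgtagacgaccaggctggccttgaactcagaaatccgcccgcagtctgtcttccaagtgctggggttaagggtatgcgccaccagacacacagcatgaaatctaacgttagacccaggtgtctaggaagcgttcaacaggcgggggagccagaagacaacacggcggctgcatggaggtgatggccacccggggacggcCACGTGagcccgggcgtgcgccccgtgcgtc
Eef2: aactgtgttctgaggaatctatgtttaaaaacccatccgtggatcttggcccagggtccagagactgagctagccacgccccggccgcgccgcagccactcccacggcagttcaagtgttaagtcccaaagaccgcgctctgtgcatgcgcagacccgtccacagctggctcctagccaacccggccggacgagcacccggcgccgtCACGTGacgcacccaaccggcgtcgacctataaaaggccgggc

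Regulators of EEF2K were called in both directions, in counts to be read beside the shares of all genes. Of 15 genes, among them subunits of AMPK, S6 and RSK kinases and calmodulins, 5 were called higher and 1 lower in c-MYC versus NL, with a median log2 fold change of 0.72 beside 0.08 over all tested genes. Among all tested genes 24.5% were called higher and 23.6% lower in that comparison, 15.9% and 12.7% between the tumour groups and 31.2% and 26.6% in c-MYC/FOXO1AAA versus NL, and the counts of the lists that follow stand beside these shares too. The AMPK catalytic subunits parted, with Prkaa1 higher (11.4 ± 0.721 against 3.31 ± 0.612 FPKM, log2 fold change 1.80, adjusted p = 4.72e-05) and Prkaa2 lower (2.9 ± 0.849 against 11.8 ± 0.611 FPKM, log2 fold change -2.07, adjusted p = 0.000119). In c-MYC/FOXO1AAA versus c-MYC, Prkaa1 was called higher again, at 28.2 ± 5.19 FPKM (log2 fold change 1.29, adjusted p = 0.0054). The kinase Rps6ka1 (-1.17, adjusted p = 0.0122) and the AMPK subunit Prkab1 (-1.09, adjusted p = 0.0106) were called lower in that comparison. Its median was -0.08 beside 0.03 over all genes. Against NL, the c-MYC/FOXO1AAA tumours had 5 called higher and 1 lower, with Prkaa1 at 3.09, the subunit Prkab2 at 2.41 (2.04 in c-MYC) and Prkaa2 at -3.27 in log2 fold change. Prkab2 was under 1 FPKM in all NL libraries and entered the test through the tumours where it was high, and without it 4 of 14 were called higher and 1 lower in either comparison with NL.

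Among the partners of elongation, another isoform gene was highest in c-MYC/FOXO1AAA. Eif5a2, an isoform of the factor that eases stalled peptide bonds, was at 0.0497 FPKM in NL, 0.167 in c-MYC and 6.04 ± 2.01 in c-MYC/FOXO1AAA (SD, n = 3), with at most 3 reads in any NL library and 16 in any c-MYC library. It passed the filter on low values only through the c-MYC/FOXO1AAA libraries, so its levels are a description with no test. The common isoform Eif5a was at 500 FPKM in NL, 1126 in c-MYC and 1192 in c-MYC/FOXO1AAA. Of the 8 other partners, 4 were called higher and 1 lower in c-MYC versus NL. Between the tumour groups limma treat called 0 of the 8, and 0 at an unadjusted p under 0.05. Vars, the valyl-tRNA synthetase bound to the EEF1B complex, was higher by 2.25 in log2 fold change in c-MYC versus NL (adjusted p = 9.1e-06), and Eef1e1, of the multisynthetase complex, by 2.10 (adjusted p = 1.45e-06). Eefsec, the selenocysteine elongation factor, was the 1 called lower (-0.91, adjusted p = 0.0104). Against NL, c-MYC/FOXO1AAA likewise had 4 of the 8 called higher, with Eef1e1 at 2.06, and 1 lower, Eefsec at -1.19.

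Paralogs of general translation genes were examined for other isoform changes. Besides Eif5a2, the cap-binding paralog Eif4e3 was under 1 FPKM in a whole group, c-MYC, and entered the test through the other groups, so it is described with no test. Of the other 7 tested, 3 were called higher and none lower in c-MYC versus NL, and 2 to 4 of the 7 were called when any 1 library was left out. Between the tumour groups limma treat called 0 of these 7, with 1 at an unadjusted p under 0.05 and 1 called without c-MYC/FOXO1AAA replicate 2. Eif4e3 was at 1.8 ± 0.15 FPKM in NL (n = 4), 0.526 ± 0.134 in c-MYC (n = 3) and 2.48 ± 0.573 in c-MYC/FOXO1AAA (n = 3), lowest in c-MYC. The poly(A)-binding paralog Pabpc4 was higher in c-MYC versus NL (142 against 22.5 FPKM, log2 fold change 2.68, adjusted p = 4.87e-07). Against NL, 3 of the 8 other than Eif5a2 were called higher and none lower in c-MYC/FOXO1AAA, among them Pabpc4 (log2 fold change 2.39).

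Enzymes that modify elongation factors were mostly higher in c-MYC tumours, 9 of 14 tested and none lower, with a median of 1.30 beside 0.08. They include Dph2, of the diphthamide pathway that modifies EEF2 (10.8 ± 0.55 against 2.21 ± 0.949 FPKM, log2 fold change 2.38, adjusted p = 0.000128), and Eef2kmt, which methylates EEF2 (39.7 ± 2.47 against 12 ± 2.11 FPKM, log2 fold change 1.74, adjusted p = 1.38e-05). Between the tumour groups 1 of 14, Dph3, was called, at 9.72 FPKM in c-MYC/FOXO1AAA and 4.1 in c-MYC (log2 fold change 1.27, adjusted p = 0.0113), and 2 were called without c-MYC/FOXO1AAA replicate 1. Against NL, c-MYC/FOXO1AAA had 9 called higher and none lower, led by Dph6 at 2.44 and Dph2 at 2.32.

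Termination and recycling factors had 4 called higher and 1 lower of 7 in c-MYC versus NL, and none in c-MYC/FOXO1AAA versus c-MYC. Between the tumour groups limma treat also gave 0 at an unadjusted p under 0.05. With no fold-change threshold 4 were called there, where 28.4% of all tested genes were called higher and 26.4% lower. In c-MYC versus NL the release factor isoform Gspt2 was higher by 1.85 in log2 fold change (adjusted p = 0.000524) and the recycling factor Abce1 by 1.19 (adjusted p = 0.000309). Mcts1, also of recycling, was lower (-0.97, adjusted p = 0.00395). For c-MYC/FOXO1AAA versus NL, 3 were called higher and none lower, with Gspt2 at 2.39 and Abce1 at 0.87. That count fell to 1 without c-MYC/FOXO1AAA replicate 1.

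Mitochondrial translation factors were called in small numbers at the 1.5-fold threshold. In c-MYC versus NL 1 of 10 was called higher, Tsfm, the exchange factor of the mitochondrial elongation factor Tufm (0.89, adjusted p = 0.0499), and none lower, with a median of -0.03. That count was 0 without NL replicate 1, 2 or 3, c-MYC replicate 1 or 3, or c-MYC/FOXO1AAA replicate 2 or 3, and 5 genes were called with the same FPKM total. Between the tumours limma treat called none, and 0 at an unadjusted p under 0.05, with a median of -0.49 beside 0.03. With no fold-change threshold 8 of the 10 were called in that comparison, beside 28.4% called higher and 26.4% lower among all tested genes. Of the 10, Guf1 alone had a log2 fold change above 0 there (0.69). At the 1.5-fold threshold 1 was called without c-MYC/FOXO1AAA replicate 3. In c-MYC/FOXO1AAA versus NL, Guf1 was called higher (1.04, adjusted p = 0.0049), and the initiation factor Mtif3 (-1.47, adjusted p = 0.000945) and the elongation factor Gfm1 (-0.82, adjusted p = 0.0165) lower.

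**Figure D5:**
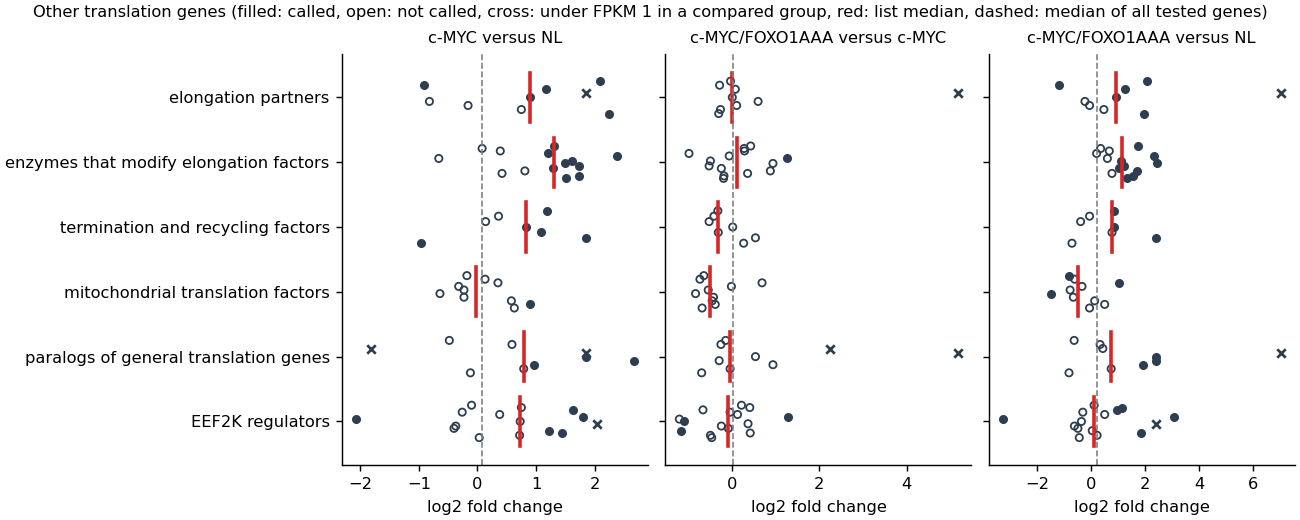
Log2 fold changes of the tested genes in 6 lists of translation genes for the 3 comparisons, with points for genes, filled where limma treat called them and crossed where every library of a compared group was under 1 FPKM. Red lines are list medians, crosses included, and the dashed line is the median of all tested genes. In c-MYC/FOXO1AAA versus c-MYC the mark farthest to the right is the cross of Eif5a2.

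Cytosolic ribosomal protein genes give the scale for the elongation factors. In c-MYC versus NL 59 of 80 were called higher and none lower, with a median log2 fold change of 1.22, and in c-MYC/FOXO1AAA versus NL 70 of 80 and none, with 1.43. Rpl13a had the largest rise in both, at 2.87 and 2.66, with Rps10 (2.40) and Rpl29 (2.62) next. The last 2 were low in NL, Rps10 at 3.15 FPKM and at most 31 reads per library, and Rpl29 at 0.97 FPKM and at most 10. Between the tumour groups 0 of 80 were called in either direction in limma treat (also 0 at an unadjusted p under 0.05, and 7 with no fold-change threshold), with a median of 0.16. With no fold-change threshold 28.4% of all tested genes were called higher and 26.4% lower there. Against the median of these genes within each library, Eef1a1 was lower by 0.67 and Eef2 by 0.94 log2 units in c-MYC than in NL, and Eef1b2 was higher by 0.47 and Eef1g by 0.55. Eef1d, by contrast, was lower by 0.24 on this measure.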

How the data were processed

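RNA-seq of mouse liver tissue was analysed in 10 libraries, grouped by the titles in the labels. According to the methods, the authors counted reads by Ensembl gene and used edgeR. Submitters' processing notes name GRCm38 and FastQC 0.11.7, while aligner and counter are not given in the sources used here. The library protocol is given as polyA capture or rRNA removal. The deposited values are log2 FPKM with a prior count of 2. Of 17069 entries, 372 without a symbol were left out. Because the unit is not a count, the count model of the study was replaced by limma 3.58.1 (R 4.3.3) on the log2 values: genes reaching an FPKM of 1 in 3 or more libraries (14017), all groups in 1 fit, treat with a 1.5-fold threshold, trend and robust, 2-sided, Benjamini-Hochberg adjusted p under 0.05 over all tested genes.

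Whole reads were solved per gene, within 0.001 reads, from the floor that the prior count leaves (16692 of 16697 genes with a single solution, and 97.7% of matched lengths equal to a GENCODE M21 transcript). Reads served for counts, bounds at 3 reads and shares. On simulated data with known answers all 16697 genes were solved, and limma called 163 of 200 genes changed by 2 log2 units in c-MYC versus NL, with 2 false calls among 14017 genes. Replicates of a group differed beyond counting noise (chi-square per degree of freedom of 8.74 to 31.8). Ratios were compared by an exact 2-sided permutation test over samples (scipy 1.17.1).

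Named genes were the 7 members, in each list the 2 called genes that rose and the 2 that fell most, and the 5 nearest profiles of Eef1a1 and of Eef1a2, while list genes named beyond these were chosen after their values were seen. Members and lists were chosen with earlier results of these data known. Positions and transcripts are from GENCODE M21 (GRCm38), upstream sequences from RefSeq (GRCm38.p6), which matched 5 of the 7 members. Alternatives were scaling (same total, equal median, quantile), pseudocount, filter, threshold, trend and robust off, 2 groups only, replicate block, each library left out, and, chosen after seeing the data, pseudogene reads added and list genes under 1 FPKM in a compared group left out.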

Additional observations from a re-analysis of the deposited data

How the results depend on the processing

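Most alternatives kept the results, 422 of 449 for the members' fold changes and 54 of 60 for the ratios. Kept means the same direction and side of the threshold where there was a test, and otherwise a small change. The alternatives for the ratios did not include quantile normalization, which can change them. Under it the log2 fold changes in c-MYC versus NL were 1.87 for Eef2k, 2.26 for Eef2 and 2.01 for Eef1a1. Eef2k thus rose less than Eef2, and Eef2 more than Eef1a1, the reverse of the ratios on the deposited values. Counts were kept in 127 of 132 alternatives for members called and in 423 of 483 for lists, where a kept count could still differ somewhat. Members called higher in c-MYC versus NL, counted as kept throughout, rose from 4 to 6 with the same FPKM total, with quantile normalization and with no threshold. They fell to 3 with a threshold of 2-fold. Of all tested genes 50.4%, 26.2%, 39.1% and 15.6% were called higher at these settings, in the same order. Eef1a1 in c-MYC/FOXO1AAA versus c-MYC turned from -0.08 to 0.09 with the same FPKM total and to 0.11 after quantile normalization. Members called lower in that comparison rose from 0 to 1 with an equal median and to 2 with no fold-change threshold. Of all tested genes 14.3% and 26.4% were called lower at these 2 settings. Members called higher in c-MYC/FOXO1AAA versus NL rose from 3 to 6 with the same FPKM total, with quantile normalization and with no threshold. There 58%, 31.8% and 44.4% of all tested genes were called higher, in the same order. With the same total, genes called in c-MYC versus NL went from 3435 to 7061 higher and from 3305 to 1895 lower, since that scaling moves all genes. The Eef1a2 share of 0.00179% in NL and 0.00156% in c-MYC on the deposited values came from the prior count, and became 0% by FPKM from reads or by reads alone in NL, and 0.000366% and 0.000425% in c-MYC. With the ribosomal protein median in place of Eef1a1 as denominator, Eef1d reversed to -0.24 between c-MYC and NL. Without 1 library the Eef1d over Eef1a1 difference was 0.37 to 0.51. Same-numbered libraries did not deviate together (correlations of -0.04 to 0.027). This gave no sign of a pairing by number, though a weak pairing could not be seen this way. With the replicate number as a block, 4, 0 and 3 members were called higher in the 3 comparisons and 0 lower, as without it, while termination and recycling factors called in c-MYC/FOXO1AAA versus NL went from 3 to 1. With a threshold of 2-fold, Eef1d in c-MYC versus NL (adjusted p = 0.931) and Eef2k in c-MYC/FOXO1AAA versus NL (0.268) were no longer called. Depth limits Eef1a2 in NL and c-MYC, where levels under 3 reads cannot be seen.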
